A study of Homo sapiens with 8 samples.

Results

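Histone deacetylase (HDAC) genes of class I, II and IV were followed in HCT116, a human colorectal cancer cell line. The cells had siRNA against the transcription factor TFAP2C or an induced shRNA against UBA2, a subunit of the enzyme that starts SUMO conjugation. The genes were taken by symbol from both tables of mRNA-seq counts. They are HDAC1, HDAC2 and HDAC3 of class I and HDAC4, HDAC5, HDAC7 and HDAC9 of class IIa. HDAC6 and HDAC10 are of class IIb and HDAC11 is of class IV. In all they are 10 of the 21257 symbols that the tables share. Class I has a further member that is not reported here, so class I below means HDAC1, HDAC2 and HDAC3. All 8 libraries came from cells with a stably integrated Tet-On shRNA against UBA2, which the labels call SAE2, in 4 groups of 2 replicates. In the first experiment these cells received control siRNA or TFAP2C siRNA and were taken after 48 hrs (TFAP2C KD). In the second they were kept for 5 days in 1 μg/mL of doxycycline (Dox), which switches the shRNA on, or without Dox, where the labels give DMSO in its place. The labels do not say whether the line is a single clone or whether the replicates are separate cultures, so p-values measure only the spread between these libraries, which may be technical.

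HDACs remove acetyl groups from lysines of histones and other proteins, and at chromatin they oppose acetyltransferases such as EP300. Of the class I enzymes, HDAC1, HDAC2 and HDAC3 are nuclear and work within corepressor complexes. HDAC1 and HDAC2 are close paralogs that share the NuRD, SIN3, CoREST and MiDAC complexes, while HDAC3 works in a complex built on the corepressor NCOR1. Class IIa enzymes have little deacetylase activity of their own, bind MEF2 transcription factors and leave the nucleus on 14-3-3 proteins once kinases have phosphorylated them. HDAC6 deacetylates α-tubulin and other cytoplasmic proteins. The study asks how SUMO conjugation and TFAP2C act on enhancers together with an HDAC complex, and the comparisons below ask whether the mRNAs of the enzymes themselves differed.

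The authors deposited the number of reads per gene without normalization. Total counts per library lay between 20785035 and 24465109 in the TFAP2C experiment and between 18213739 and 20607813 in the UBA2 experiment. Levels are given as CPM, the count of a gene relative to the total of its library after scaling by TMM, and SE is the standard error of a log2 fold change. In edgeR's quasi-likelihood test with Benjamini-Hochberg adjustment, TFAP2C fell by 2.34 on the log2 scale in TFAP2C KD (adjusted p = 7.67e-06). UBA2 mRNA was 162 and 146 CPM without Dox and 147 and 153 CPM with Dox, a log2 fold change of -0.04 that did not pass the same test of edgeR (adjusted p = 0.766). The mRNA therefore did not check the label, and the Dox libraries are called the libraries labelled UBA2 KD. All 5 epithelial markers looked for (EPCAM, KRT8, KRT18, KRT19 and CDH1) were detected in both experiments, with a summed level of 2782 to 3380 CPM in the first and 2132 to 2480 CPM in the second. Summed leukocyte and endothelial markers stayed at or under 6.45 CPM, and of the 3 fibroblast markers COL1A2 and DCN were at 0 while COL1A1 gave 14.9 to 47.5 CPM. In bulk samples such as these, fewer cells of a type and less RNA per cell cannot be told apart.

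The promoters of the HDAC genes are shown first, since TFAP2C belongs to the AP-2 factors, which bind GC-rich DNA at a palindrome of the form GCCNNNGGC. RefSeq promoters on GRCh38.p14, from 250 bases before to 50 bases after a transcription start, were matched by symbol for 9 of the 10 genes, and HDAC5 had no entry. The 9 genes have 19 such promoters. The 4 below are those of HDAC1, the member with the most AP-2 matches in a promoter, of its paralog HDAC2, of HDAC3, and of the outermost HDAC4 start, HDAC4 having the smallest p of the members over both knockdowns. They lie at chr1:32291833-32292132 on the plus strand, chr6:113971099-113971398 on the minus strand, chr5:141636800-141637099 on the minus strand and chr2:239401600-239401899 on the minus strand. Each is written 5′ to 3′ on its gene's strand, and capitals mark GCCNNNGGC or the wider AP-2 form, the same palindrome with 4 bases between its arms.
HDAC1: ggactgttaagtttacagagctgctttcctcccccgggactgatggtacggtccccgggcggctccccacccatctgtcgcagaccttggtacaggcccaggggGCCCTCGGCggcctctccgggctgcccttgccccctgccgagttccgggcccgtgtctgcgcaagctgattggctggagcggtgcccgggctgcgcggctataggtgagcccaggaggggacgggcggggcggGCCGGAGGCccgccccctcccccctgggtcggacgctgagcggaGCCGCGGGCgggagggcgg
HDAC2: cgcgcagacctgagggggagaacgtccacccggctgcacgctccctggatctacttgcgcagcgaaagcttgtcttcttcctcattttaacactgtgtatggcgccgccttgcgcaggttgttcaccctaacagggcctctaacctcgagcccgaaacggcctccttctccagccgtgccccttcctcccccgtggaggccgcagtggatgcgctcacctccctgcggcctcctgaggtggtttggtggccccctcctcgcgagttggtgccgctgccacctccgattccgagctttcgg
HDAC3: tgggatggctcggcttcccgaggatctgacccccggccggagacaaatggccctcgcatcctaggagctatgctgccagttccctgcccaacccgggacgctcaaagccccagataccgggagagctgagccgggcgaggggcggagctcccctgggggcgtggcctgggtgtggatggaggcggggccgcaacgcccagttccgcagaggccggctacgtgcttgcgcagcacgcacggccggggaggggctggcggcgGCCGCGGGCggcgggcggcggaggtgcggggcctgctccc
HDAC4: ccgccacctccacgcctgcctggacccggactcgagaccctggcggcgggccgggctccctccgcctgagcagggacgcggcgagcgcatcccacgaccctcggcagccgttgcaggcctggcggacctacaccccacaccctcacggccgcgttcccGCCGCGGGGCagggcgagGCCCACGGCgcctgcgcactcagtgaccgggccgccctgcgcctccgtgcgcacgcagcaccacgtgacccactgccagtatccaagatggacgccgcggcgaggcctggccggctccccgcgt

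The HDAC1 promoter held 3 matches to GCCNNNGGC and 6 GC boxes (GGGCGG, read on both strands, overlaps with the AP-2 form allowed), whereas the HDAC2 promoter held 0 of either. HDAC3 held 1 match to GCCNNNGGC and 3 GC boxes, and the HDAC4 promoter shown held 1 match to each AP-2 form. Over all 19 promoters, GCCNNNGGC was present in 8, which belong to 6 genes (HDAC1, HDAC3, HDAC4, HDAC6, HDAC7 and HDAC10), beside 23.2% of the 35116 promoters in the RefSeq table. The wider AP-2 form was present in 7 of 19, in HDAC4, HDAC6, HDAC9 and HDAC11, beside 21.4% of all promoters. A GC box was present in 9 of 19 (45.0% of all promoters) and TATAAA in 0 of 19 (11.5% of all promoters). Members with several starts in the table, mainly HDAC4 and HDAC9 with 5 each, weigh most in these counts, and their windows can overlap. The HDAC1 promoter was 73.7% G and C and that of HDAC2 64.0%, beside a median of 58.7% over all promoters. A match describes these letters and is not evidence of binding in HCT116 cells.

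Among the HDAC genes followed, HDAC1 had the most mRNA per length in both experiments and HDAC9 the least. On the scale of CPM per kilobase of gene length (RPKM), with the length that each table gives, the mean of the 4 libraries of the TFAP2C experiment was 74.3 RPKM for HDAC1 (range 69.1 to 76.5). This was 3.74 times the level of HDAC3, the next in order, at 19.9 RPKM (range 19.1 to 21.1). HDAC2 followed at 12.8, HDAC5 at 11.8, HDAC6 at 9.71, HDAC7 at 7.75 and HDAC11 at 3.60 RPKM. HDAC10 at 3.01 RPKM (2.79 to 3.18) and HDAC4 at 2.76 RPKM (2.49 to 2.93) were the only neighbours in this order whose ranges over the libraries overlapped. HDAC9 was at 0.236 RPKM, 11.7-fold under HDAC4. In percentiles of the level per length among the genes tested, HDAC1 stood at 97.4 and HDAC9 at 6.23.

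In the UBA2 experiment HDAC1 was at 75.4 RPKM (range 73.1 to 78.4), HDAC3 at 43.5 (41.2 to 46.2) and HDAC2 at 37.5 (37.2 to 38.0). The class I enzymes followed were thus again the first 3 in order. HDAC7 followed at 10.1, HDAC6 at 7.96, HDAC10 at 7.85, HDAC4 at 5.67, HDAC5 at 4.77 and HDAC11 at 2.76 RPKM, and HDAC9 was last at 0.242 RPKM. HDAC6 and HDAC10 were the neighbours whose ranges overlapped (7.74 to 8.23 and 7.33 to 8.41 RPKM). The order depends on the length used, since the tables were counted on different annotations and give HDAC2 a length of 15.316 and 6.913 kb and HDAC3 one of 4.601 and 2.139 kb. With the transcript that MANE Select names for each gene, HDAC1 stayed first at 139 and 126 RPKM, HDAC3 second and HDAC9 last, but HDAC6 (24.9 RPKM) passed HDAC2 (20.2 RPKM) in the TFAP2C experiment. Of the summed RPKM of the HDAC genes followed, HDAC1, HDAC2 and HDAC3 together made up 73.3% ± 0.449 (SD, n = 2) with control siRNA. In TFAP2C KD they made up 73.4% ± 0.152. They made up 80.2% ± 0.607 without Dox and 79.7% ± 0.934 in the libraries labelled UBA2 KD. In both experiments the groups overlapped.

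**Figure D1:**
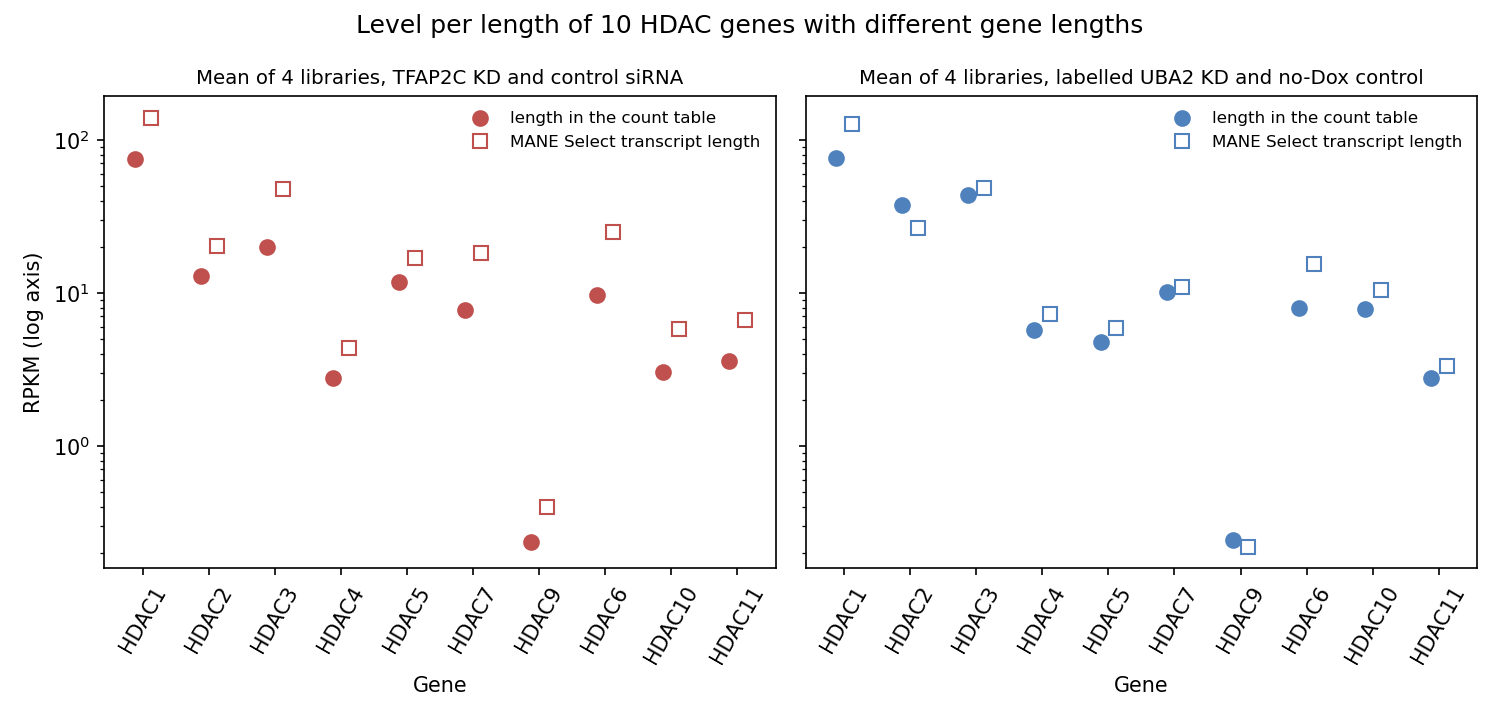
Mean RPKM over the 4 libraries of each experiment (log axis) for the 10 HDAC genes, with the gene length of the count table (filled circles) and with the length of the MANE Select transcript (open squares). HDAC1 is highest and HDAC9 lowest with either length, at 74.3 and 0.236 RPKM in the TFAP2C experiment and 75.4 and 0.242 RPKM in the UBA2 experiment with the lengths of the tables.

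In TFAP2C KD, 0 of the 10 HDAC genes passed an adjusted p of 0.05 in edgeR's quasi-likelihood test, where 0.74% of the 14991 genes tested did (111 genes, 0.26% higher and 0.48% lower). At an unadjusted p under 0.05 the count was also 0, beside 12.6% of all genes, and DESeq2 called 0. For 3 of the 10 genes both TFAP2C KD libraries lay beyond both controls, all of them lower, where groups did not overlap for 44.7% of all genes and lay lower for 22.4%. The log2 fold changes lay between -0.10 and 0.05, 3 above 0 and 7 below, with a median of -0.04 beside -0.0038 over all genes. In size they had a median of 0.049, beside 0.108 over all genes. Their median SE was also smaller, 0.074 beside 0.0995. The TFAP2C KD replicates differed from each other more than the other pairs did. Without TFAP2C KD replicate 2, 2825 genes of the whole table were called, and without TFAP2C KD replicate 1, 537, and without control siRNA replicate 1, 49. The HDAC genes called stayed at 0 in each of the 12 other analyses, where the smallest adjusted p of any of them was 0.260 (HDAC3).

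HDAC1 (chromosome 1, 32292083 to 32333635 on GRCh38, the build of the positions in this table) was at 303 and 299 CPM with control siRNA and at 300.1 and 273 CPM in TFAP2C KD. The groups overlapped, with a single low library, TFAP2C KD replicate 2. Without that library the log2 fold change was -0.0012, and without TFAP2C KD replicate 1 it was -0.14 (adjusted p = 0.307, edgeR). The log2 fold change was -0.07 (SE 0.07, adjusted p = 0.715, edgeR), and its 95% interval ran from a fall of 14.2% to a rise of 5.79%. HDAC2 (chromosome 6, 113933028 to 114011308) gave 203 and 195 CPM in the controls and 189 and 199 CPM in TFAP2C KD, also with overlap. Its log2 fold change was -0.04 (SE 0.07, adjusted p = 0.853). HDAC3 (chromosome 5, 141620876 to 141636849) was at 87.7 and 92.1 CPM in the controls and at 97.1 and 89.1 CPM in TFAP2C KD. It was the class I gene with a value above 0, 0.05 (SE 0.08, adjusted p = 0.811), and the groups overlapped.

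Among class IIa genes, HDAC5 (chromosome 17, 44076746 to 44123702) had 91.4 and 92.7 CPM in the controls and 89.8 and 84.7 CPM in TFAP2C KD. Both knockdown libraries were lower, but the difference did not pass the test (log2 fold change -0.08, SE 0.07, adjusted p = 0.692, edgeR). HDAC7 (chromosome 12, 47782722 to 47833132), with 75.8 and 77.5 CPM in the controls and 77.2 and 76.6 CPM in the knockdown, had the value nearest to 0 (log2 fold change 0.0037, interval from -9.97% to 11.6%). HDAC4 (chromosome 2, 239048168 to 239401654) was at 37.2 and 37.5 CPM in the controls and at 39.0 and 33.2 CPM in the knockdown, on either side of the controls. Its antisense gene HDAC4-AS1 overlaps it by 219 bases, with 109 counts over the 4 libraries beside 3368 for HDAC4. HDAC9 (chromosome 7, 18086949 to 19002416) was at 3.94 and 3.93 CPM and at 3.67 and 4.30 CPM, from 82 to 96 counts a library. Its interval was the widest, from -20.7% to 28.7%, so smaller changes of HDAC9 were not detectable at this depth.

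HDAC6 (chromosome X, 48801377 to 48824982) gave 103 and 107 CPM with control siRNA and 102 and 98.7 CPM in TFAP2C KD. Both knockdown libraries lay under both controls (log2 fold change -0.06, SE 0.07, adjusted p = 0.766, edgeR). HDAC10, which deacetylates polyamines (chromosome 22, 50245183 to 50251405), had the lowest log2 fold change of the members, -0.10 (SE 0.10, adjusted p = 0.739), from 15.1 and 15.7 CPM in the controls and 15.0 and 13.8 CPM in the knockdown. In this table the span of HDAC10 shares 5956 bases with MAPK12 on the same strand, to which 9784 counts were assigned over the 4 libraries and 1362 to HDAC10, so HDAC10 values depend on how shared reads were counted. HDAC11, known to remove fatty acyl groups (chromosome 3, 13479724 to 13506424), was at 18.2 and 19.5 CPM in the controls and at 20.5 and 16.9 CPM in the knockdown. The knockdown libraries lay above and below the controls, with a log2 fold change of -0.01 (SE 0.11).

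**Figure D2:**
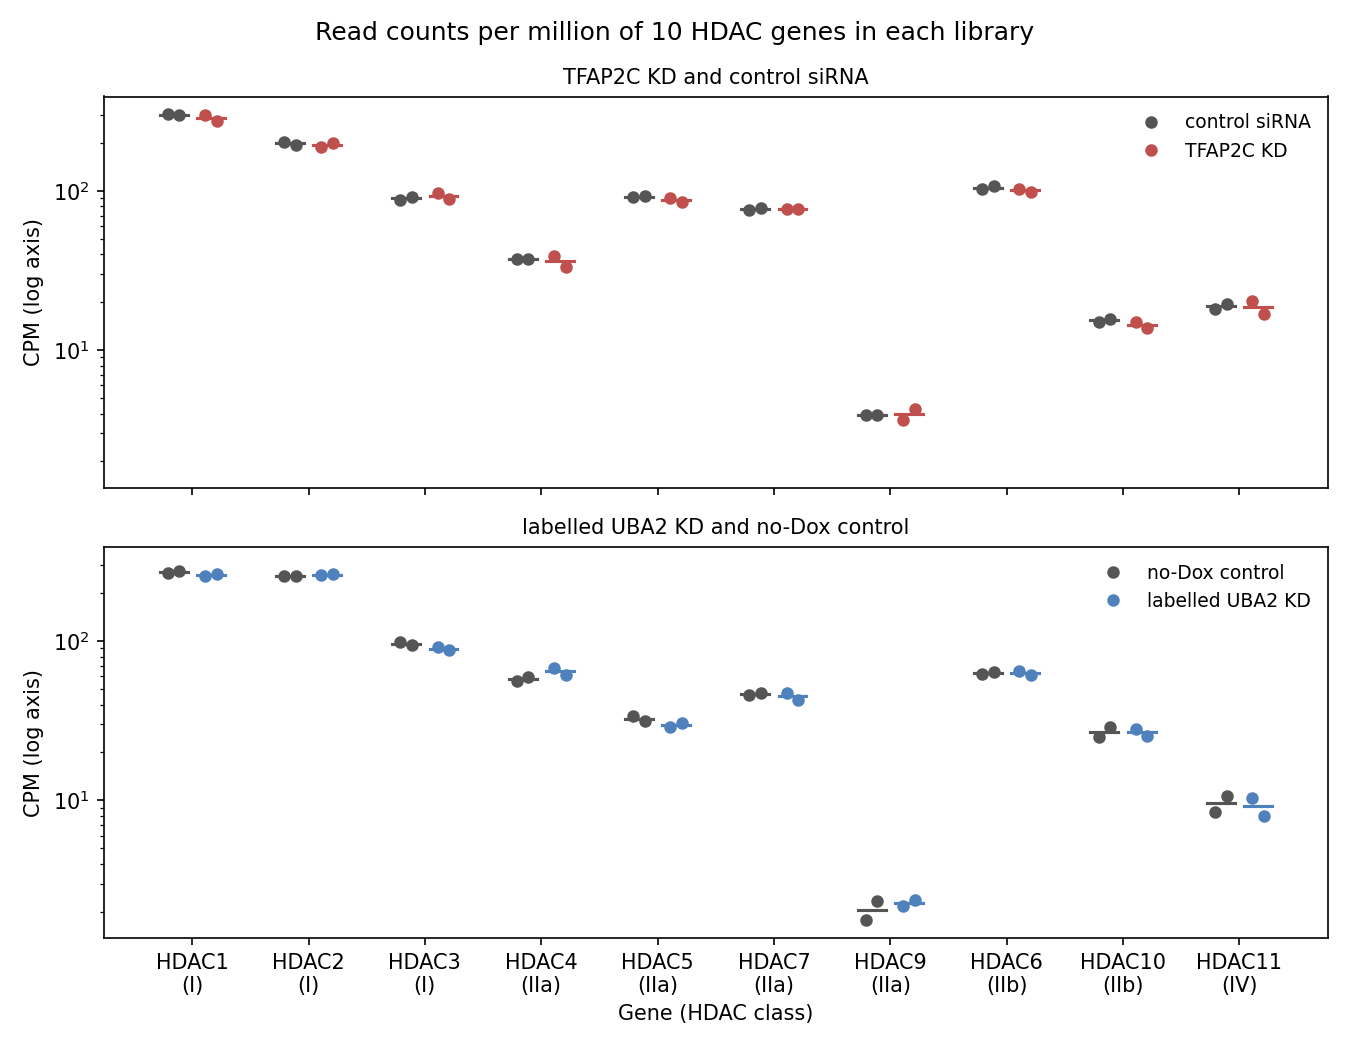
CPM (log axis) of the 10 HDAC genes in each of the 8 libraries, with control libraries in grey, TFAP2C KD in red and libraries labelled UBA2 KD in blue. Points are libraries and lines are the means of 2. HDAC1 lies between 273 and 303 CPM in the TFAP2C experiment and between 258 and 277 CPM in the UBA2 experiment. CPM is not scaled by gene length, so the plot compares libraries and not genes.

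In the libraries labelled UBA2 KD, 0 of the 10 HDAC genes passed an adjusted p of 0.05 in edgeR's quasi-likelihood test, where 9.98% of the 13381 genes tested did (738 higher and 598 lower). At an unadjusted p under 0.05 there was 1, HDAC4, beside 22.7% of all genes, and DESeq2 called 0. Groups did not overlap for 5 of the 10 genes, beside 51.3% of all genes (25.8% lower). HDAC1, HDAC3 and HDAC5 were lower in both Dox libraries, and HDAC2 and HDAC4 were higher. The median log2 fold change was -0.03, beside -0.00042 over all genes, with 4 values above 0 and 6 below. The median size was 0.067, beside 0.097 over all genes, and the median SE was 0.069, beside 0.079. Without no-Dox control replicate 2, 833 genes of the whole table were called in place of 1336, and the HDAC genes called stayed at 0. The biological coefficient of variation was 3.56% here and 6.28% in the TFAP2C experiment.

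HDAC4 was at 56.1 and 59.9 CPM without Dox and at 67.7 and 61.6 CPM with Dox. Both Dox libraries were above both controls, by little in the case of replicate 2. The log2 fold change was 0.15 (SE 0.07, unadjusted p = 0.0269, adjusted p = 0.153, edgeR), a difference of 11.3% with an interval from 1.32% to 22.3%. Without UBA2 KD replicate 2 it became 0.22 (adjusted p = 0.0436, edgeR) and without UBA2 KD replicate 1 it became 0.086 (adjusted p = 0.604, edgeR), and over the 11 other analyses the adjusted p ranged from 0.0436 to 0.604. HDAC5, also of class IIa, lay in the other direction, at 33.8 and 31.3 CPM without Dox and 28.7 and 30.8 CPM with Dox. Its log2 fold change was -0.13 (SE 0.08, adjusted p = 0.361). HDAC7 overlapped, with 46.2 and 47.4 CPM without Dox and 47.5 and 42.8 CPM with Dox (log2 fold change -0.05). HDAC9 was at 1.76 and 2.35 CPM without Dox and 2.17 and 2.36 CPM with Dox, which rests on 33 to 49 counts a library and allows an interval from -22.1% to 53.8%.

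HDAC1 was at 268 and 277 CPM without Dox and at 258 and 263 CPM with Dox. Both Dox libraries were lower, by 4.37% on average in the fit, with a log2 fold change of -0.06 (SE 0.05, adjusted p = 0.459, edgeR) and an interval from -10.6% to 2.28%. HDAC2 was at 257 CPM in both controls and at 261 and 263 CPM with Dox. Both Dox libraries were higher, and its log2 fold change of 0.03 (SE 0.05, adjusted p = 0.802) had an interval from -4.76% to 8.85%. HDAC3 was at 98.7 and 94.2 CPM without Dox and at 91.4 and 88.0 CPM with Dox. It was lower in both Dox libraries, with a log2 fold change of -0.10 (SE 0.06, adjusted p = 0.301) and an interval from -14.4% to 1.07%.

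HDAC6 was at 61.9 and 63.6 CPM without Dox and at 65.1 and 61.2 CPM with Dox, and HDAC10 was at 25.1 and 28.8 CPM without Dox and at 28.2 and 25.6 CPM with Dox. The groups of both class IIb genes overlapped, with log2 fold changes of 0.0083 and -0.0089, near 0. HDAC10 shares 1343 bases with MAPK12 in this table (2054 counts for HDAC10 and 5576 for MAPK12 over the 4 libraries). HDAC11 was at 8.5 and 10.7 CPM without Dox and at 10.4 and 8.0 CPM with Dox, and the spread within each group was larger than the difference between the means, 9.59 ± 1.55 and 9.19 ± 1.68 CPM (SD, n = 2).

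The class I paralogs were compared between libraries by the ratio of HDAC1 to HDAC2 counts, which does not depend on library size. This ratio does depend on gene length, so it compares libraries of the same experiment and not the levels of the paralogs. It was 1.49 and 1.53 with control siRNA and 1.59 and 1.37 in TFAP2C KD, so the knockdown libraries lay on either side of the controls. It was 1.04 and 1.08 without Dox and 0.990 and 0.999 in the libraries labelled UBA2 KD, with no overlap. The means of the latter groups were 1.06 ± 0.0238 and 0.994 ± 0.00680 (SD, n = 2). An exact permutation test of 2 libraries against 2 cannot go below p = 0.333, and the difference was not tested. The HDAC genes followed had together 939 ± 2.15 CPM with control siRNA and 912 ± 30.8 CPM in TFAP2C KD (SD, n = 2). They had 865 ± 10.9 CPM without Dox and 853 ± 10.2 CPM in the libraries labelled UBA2 KD (SD, n = 2). Both TFAP2C KD libraries (933 and 890.0 CPM) lay below both controls (938 and 941 CPM), replicate 1 by little. Of all single genes tested there, 22.4% lay lower without overlap. The groups of the UBA2 experiment overlapped.

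A joint fit of the 8 libraries, over 13179 genes with shared symbols that passed the filter, tested whether an HDAC gene changed differently in the experiments. Of the 10 genes, 0 passed an adjusted p of 0.05 for the difference in edgeR's quasi-likelihood test, where 2.37% of the genes did. The count was 0 at an unadjusted p under 0.05 and in DESeq2 as well. HDAC4 had the largest difference, -0.22 for its change in TFAP2C KD minus that in the libraries labelled UBA2 KD (interval -0.46 to 0.03, adjusted p = 0.436). With each library left out it ranged from -0.31 to -0.11, the latter without TFAP2C KD replicate 2. HDAC3 followed with 0.14 (interval -0.05 to 0.34, adjusted p = 0.523). For HDAC1 the changes differed by -0.02 (interval -0.19 to 0.15, adjusted p = 0.958). The intervals of HDAC9 (-0.72 to 0.46) and HDAC11 (-0.37 to 0.47) were the widest.

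**Figure D3:**
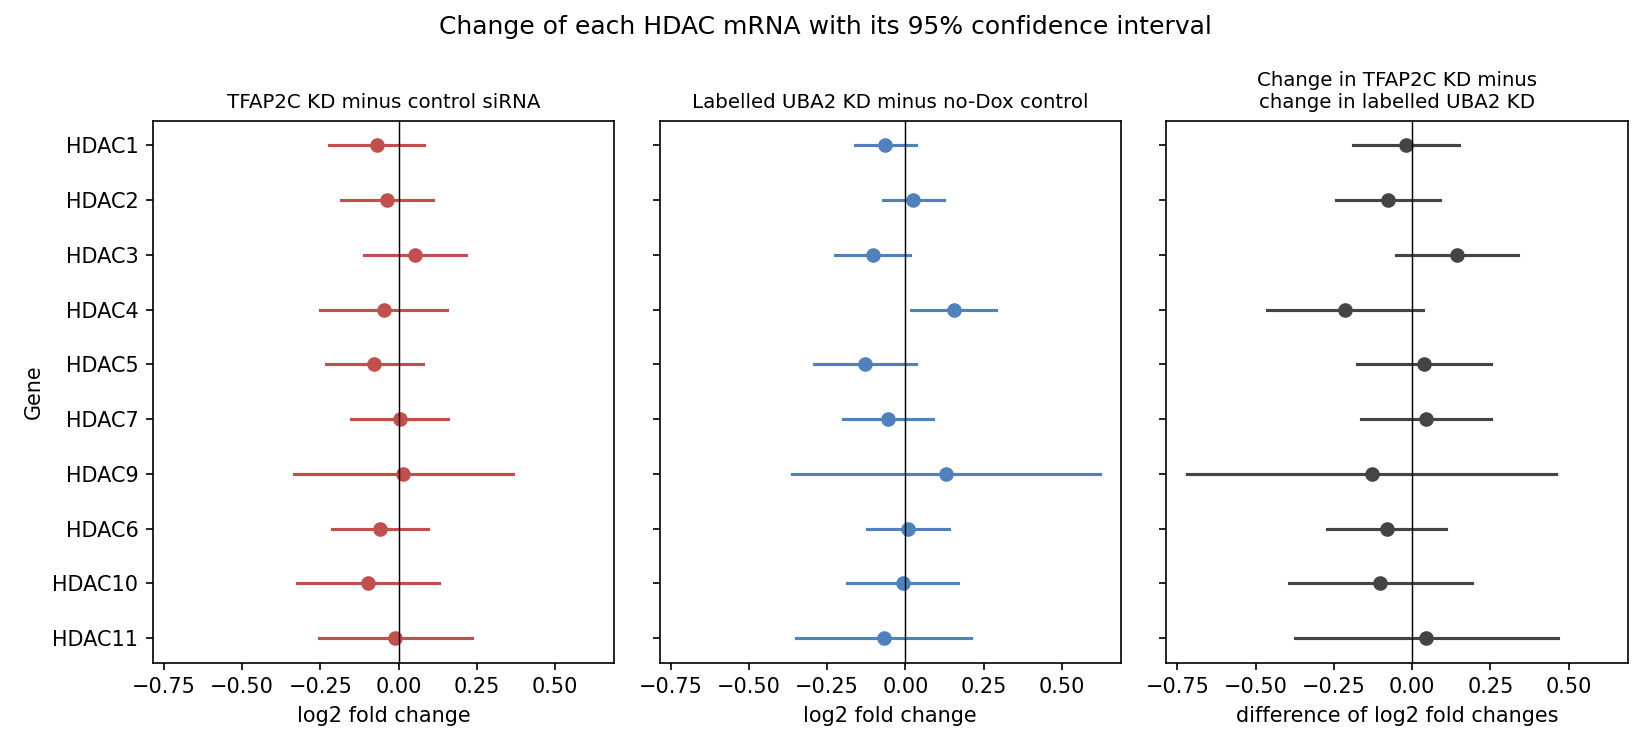
Log2 fold change of each HDAC gene with its 95% confidence interval in TFAP2C KD (left) and in the libraries labelled UBA2 KD (middle), and the difference between these changes (right), from edgeR with 2 libraries a group. Of these intervals, that of HDAC4 in the libraries labelled UBA2 KD (0.02 to 0.29) does not reach 0, and all other 29 do.

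The levels of the control groups were set side by side on the shared symbols, without a test, since experiment, annotation and treatment cannot be told apart between them. With control siRNA, HDAC5 had 2.94 times the CPM of the control without Dox (102 against 34.6 CPM), and HDAC11 2.04 times. HDAC9, HDAC6 and HDAC7 had ratios of 1.99, 1.73 and 1.70. HDAC10 and HDAC4 were lower with control siRNA, with ratios of 0.593 and 0.669. HDAC1 (1.15), HDAC3 (0.968) and HDAC2 (0.804) had ratios closest to 1.

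Genes for the proteins that hold, bind or oppose the HDACs were followed as 10 lists. In TFAP2C KD the share of genes called was 0.74% of all genes tested, and in the lists 1 gene was called. This was SFN, the 14-3-3 protein sigma, at 283 and 304 CPM with control siRNA and at 454 and 405 CPM in TFAP2C KD. It rose in both libraries, by a log2 fold change of 0.55 (SE 0.08, adjusted p = 0.00514, edgeR). The call was lost without control siRNA replicate 1 (0.50, adjusted p = 0.0581, edgeR), where 0 genes of the lists were called, while 4 were without TFAP2C KD replicate 1 and 27 without TFAP2C KD replicate 2. SFN was thus the 1 gene called of the 10 class IIa partners, whose median log2 fold change was 0.09. Of the NuRD (12 genes), SIN3 (13), CoREST (9), NCoR (4) and MiDAC (3) subunits, the sirtuins (7), the class IIa kinases (12), the substrates and partners of HDAC6 (7) and the histone acetyltransferases (12), 0 were called in TFAP2C KD by edgeR or by DESeq2. At an unadjusted p under 0.05 these lists held 0, 1, 1, 0, 2, 1, 4, 3 and 2 genes in the same order, beside 12.6% of all genes.

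Of all genes tested in the libraries labelled UBA2 KD, 9.98% were called, 5.52% higher and 4.47% lower. The lists held from 3 to 13 genes tested each, and whether they differed from that share was not tested. In them 11 genes were called, 2 higher and 9 lower. Without no-Dox control replicate 2 there were 6, and without UBA2 KD replicate 1 there were 7. MEF2C, a transcription factor that recruits class IIa HDACs, was at 14.2 and 13.9 CPM without Dox and at 6.44 and 7.25 CPM with Dox. It fell by 1.04 on the log2 scale (SE 0.12, adjusted p = 1.31e-07, edgeR), the 1 gene called of the 10 class IIa partners, whose median was 0.0019. TUBA1A, an α-tubulin and so of the family that HDAC6 deacetylates, was at 24.9 and 28.7 CPM without Dox and at 13.8 and 14.4 CPM with Dox. It fell by 0.93 (SE 0.10, adjusted p = 1.15e-08, edgeR). As a member of a family of similar genes between which reads can be split, its value is uncertain. The list of HDAC6 substrates and partners had 3 of 7 genes called, all lower. The others were the chaperones HSP90AB1 (log2 fold change -0.14, adjusted p = 0.00999) and HSP90AA1 (log2 fold change -0.11, adjusted p = 0.0446), and the median of the list was -0.09.

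Of the complexes of HDAC1 and HDAC2, CoREST had 2 of 9 subunit genes called, both lower, with a list median of -0.06. RCOR2, a paralog of the scaffold RCOR1, was at 12.9 and 14.1 CPM without Dox and at 7.72 and 8.97 CPM with Dox. It fell by 0.70 (SE 0.12, adjusted p = 9.995e-05, edgeR). The zinc finger subunit ZMYM3 fell by 0.19 (adjusted p = 0.0469). NuRD had 1 of 12 called, CDK2AP1 (log2 fold change -0.18, adjusted p = 0.0240), and SIN3 1 of 13, SAP30 (log2 fold change -0.34, adjusted p = 0.0410). Both lists had a median of -0.05. MiDAC had 0 of 3 called by edgeR or DESeq2, with 1 at an unadjusted p under 0.05.

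Of the NCoR complex that holds HDAC3, 1 of the 4 genes counted was called. All 4 values were above 0, the lowest at 0.0052, with a median of 0.09. Of the 13381 genes tested, 6672 were above 0. TBL1X, a subunit that helps to exchange corepressors, was at 86.8 and 86.4 CPM without Dox and at 108 and 105 CPM with Dox. It rose by a log2 fold change of 0.30 (SE 0.06, adjusted p = 0.000443, edgeR). Among the acetyltransferases KAT6A was higher (log2 fold change 0.18, adjusted p = 0.0325), 1 of 12 with a median of 0.02. Of the class IIa kinases tested PRKD3, a protein kinase D, was lower (log2 fold change -0.32, adjusted p = 0.0158), 1 of 12 with a median of -0.09. Of the 7 sirtuins, 0 were called by edgeR or DESeq2, and 1 had an unadjusted p under 0.05. MEF2C, TUBA1A, RCOR2 and TBL1X kept their calls in all 11 other analyses, whereas the other 7 genes lost them in 2 to 6 of 11.

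**Figure D4:**
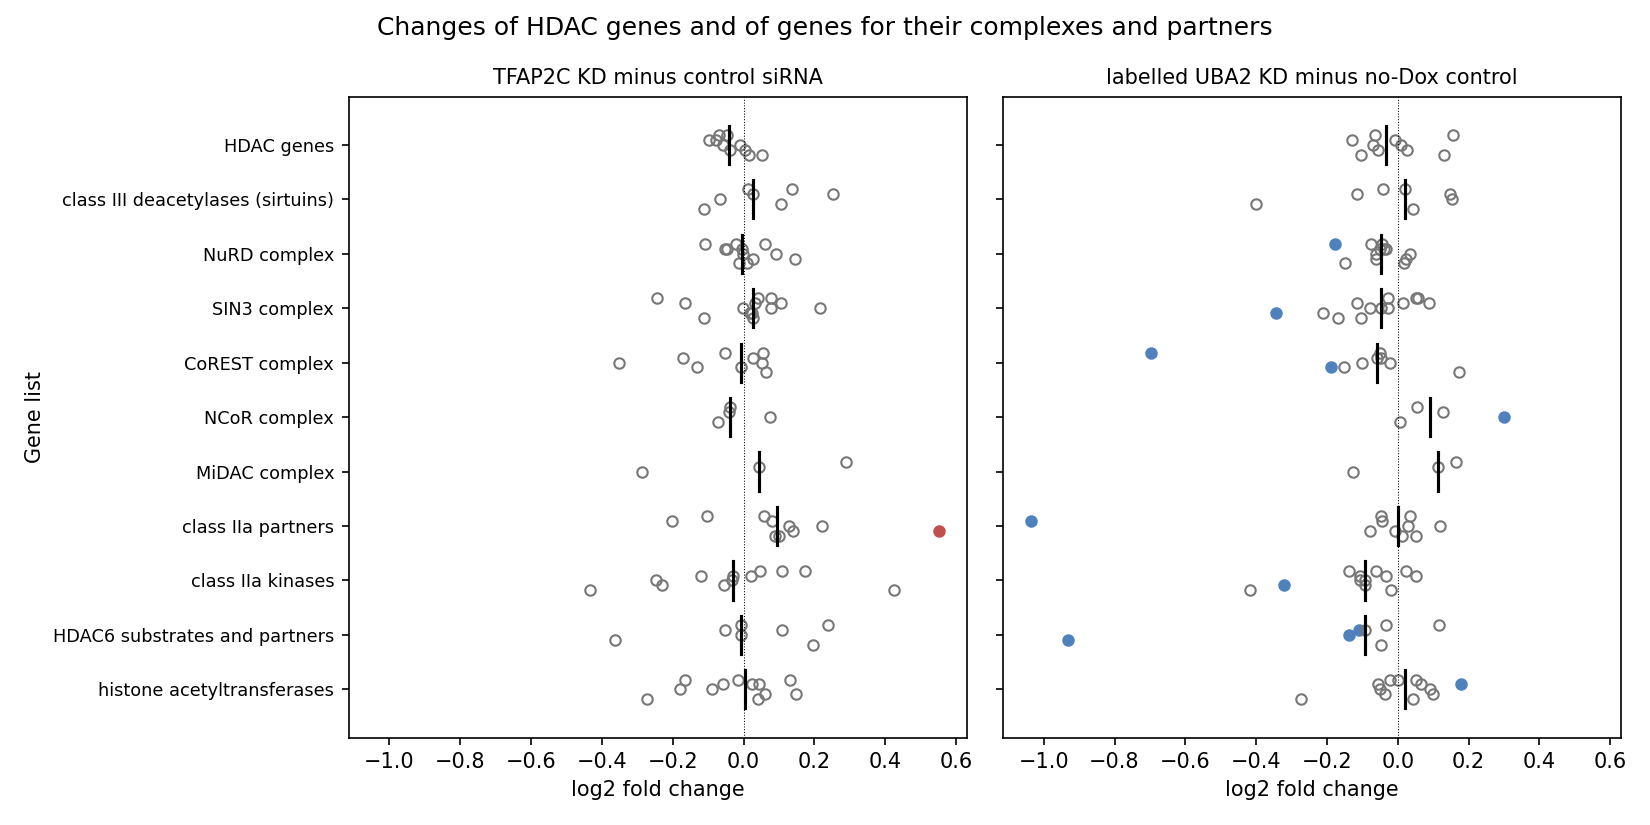
Log2 fold change of the HDAC genes and of the genes of 10 lists in TFAP2C KD (left) and in the libraries labelled UBA2 KD (right). Filled points passed an adjusted p of 0.05 in edgeR's quasi-likelihood test, open points did not, and bars are list medians. The HDAC genes lie between -0.10 and 0.05 on the left and between -0.13 and 0.15 on the right, with 0 filled. Farthest from 0 are SFN at 0.55 on the left and MEF2C at -1.04 on the right.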

How the data were processed

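mRNA-seq counts of 8 HCT116 libraries in 4 groups of 2 were used, with groups and replicate numbers from the labels. The submitters' processing notes name TopHat2, hg19 and HTSeq 0.9.1, and the authors deposited the resulting raw read counts per gene. The strand setting is not given in the sources used here, so overlapping genes may share reads. The TFAP2C table lists 42125 genes at GRCh38 positions and that of UBA2 KD 23393 genes at hg19 positions. They were fitted separately.

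In R 4.3.3, filterByExpr, TMM and the quasi-likelihood test of edgeR 4.0.16 were used, with Benjamini-Hochberg adjustment over all genes tested (14991 and 13381) at 0.05, two-sided. Alternatives were DESeq2 1.42.0, other scaling and filters, a replicate block, a joint fit and each library left out. The code was tested on simulated data. The 10 members and the lists were chosen with earlier results of these data known. From each list, up to 3 genes a direction with an adjusted p under 0.05 and a mean log2 CPM of at least 1 are named. MANE Select lengths came from GENCODE on GRCh37, promoters from RefSeq on GRCh38.p14. A MiDAC subunit is listed under both of its symbols, so 3 of 4 were found. A gene of the NCoR list is not reported here, and the list was counted without it.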

Additional observations from a re-analysis of the deposited data

How the results depend on the processing

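Of 370 changes of HDAC genes recomputed under an alternative, 338 kept their direction and their side of the threshold, 31 changed direction and 1 passed the threshold, HDAC4 in the libraries labelled UBA2 KD without UBA2 KD replicate 2 (0.22). HDAC genes called stayed at 0, except for a range of 0 to 1 there with each library left out. Scaling by library size only turned HDAC7 (-0.025) and HDAC9 (-0.014) in TFAP2C KD and HDAC6 (-0.018) in the libraries labelled UBA2 KD, shifted the median of all genes to -0.03 in both, and gave 588 higher and 805 lower genes for the latter beside 738 and 598. A joint fit of 8 libraries turned HDAC7 in TFAP2C KD (-0.0063). With each library left out, log2 fold changes in TFAP2C KD ranged from -0.075 to 0.0013 for HDAC2, -0.011 to 0.12 for HDAC3, -0.17 to 0.066 for HDAC4, -0.012 to 0.013 for HDAC7, -0.098 to 0.13 for HDAC9 and -0.15 to 0.12 for HDAC11. In the libraries labelled UBA2 KD they ranged from -0.036 to 0.053 for HDAC6, -0.13 to 0.020 for HDAC7, -0.051 to 0.36 for HDAC9, -0.10 to 0.097 for HDAC10, -0.27 to 0.11 for HDAC11 and -0.11 to 0.038 for UBA2. The differences between the experiments ranged from -0.065 to 0.038 for HDAC1, -0.0079 to 0.093 for HDAC5, -0.029 to 0.13 for HDAC7, -0.36 to 0.061 for HDAC9, -0.14 to 0.25 for HDAC11, -0.31 to -0.11 for HDAC4 and -0.21 to -7.2e-05 for HDAC10. Beside 111 genes of the whole table in TFAP2C KD, 398 were called with no filter, 271 in the joint fit and 49 to 2825 with each library left out. Beside 1 gene of the partner lists there were 3, 2 and 0 to 27. Beside 1336 genes in the libraries labelled UBA2 KD, the Wald test of DESeq2 called 673, the joint fit 696 and the fits with a library left out 833 to 1271, and of 11 partner genes 5, 4 and 6 to 9. The cause was not tested. After the group means were removed, same-numbered libraries correlated at -0.139 in the TFAP2C experiment and 0.0744 in the UBA2 experiment. With 2 libraries a group, this cannot tell whether same-numbered libraries shared a culture or a batch. With the replicate number as a block 172 and 1308 genes were called, and with the pairing of TFAP2C KD crossed, an alternative chosen after seeing the data, 467, of which 7 were partner genes. HDAC genes called stayed at 0 in these. Of the 10 positions in the order by level per length, 7 (TFAP2C experiment) and 7 (UBA2 experiment) were kept with the length of the other table and 6 and 8 with MANE Select lengths. Depth limited HDAC9, with 33 to 96 counts a library.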
